A study of Mus musculus with 6 samples.

Results

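The genes examined here were 4 subunits of the transcription factor NF-kB (Nfkb1, Nfkb2, Rela and Relb) and 6 genes whose products restrain or adjust it (Nfkbia, Nfkbiz, Bcl3, Tnfaip3, Tnip1 and Birc3). They were taken by their symbols from a table of 55487 genes, and each of the 10 symbols stood in 1 row. RNA-seq had been carried out on colon intestinal epithelial cells (IECs) from mice that drank dextran sodium sulphate (DSS), a polymer that injures the colonic epithelium. Nsd2 f/f mice, the source of 3 libraries, carry loxP sites around Nsd2 but no Cre. Their libraries are labelled WT, and the floxed genotype is taken from the text of the study. The other 3 libraries are from Nsd2 Vil-KO mice, in which the same floxed alleles are combined with Cre under the Villin promoter. Nsd2 encodes a histone methyltransferase that dimethylates lysine 36 of histone H3. The mice were on a C57BL/6J background and received 2% DSS in the drinking water at 2 months of age, with littermates as controls. Every library comes from a DSS-treated mouse, so no value here compares treated with untreated epithelium. Villin-Cre acts in the epithelium, so other cells in the preparation keep Nsd2, and Cre is present only in the Nsd2 Vil-KO group, so effects of Cre and of Nsd2 loss cannot be told apart.

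NF-kB proteins bind DNA as dimers. In resting cells IkB proteins hold the dimers in the cytoplasm; bacterial products, tumour necrosis factor and interleukin-1 activate the IKK kinase, the IkB protein is degraded, and the dimers enter the nucleus. Several of the genes they switch on encode their own inhibitors, which makes a negative feedback loop. In the intestinal epithelium the pathway drives chemokine and antimicrobial genes and also protects cells from death during colitis.

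The libraries held between 15439123 and 20350539 counted reads, and the lowest count of any of the 10 genes in any library was 485, so counting error was small beside the spread between libraries. Levels are stated in CPM, that is, reads scaled to an equal library size with TMM factors. Values are listed in the order of replicates 1, 2 and 3. Nsd2, which checks the labels, stood at 47.8, 51.1 and 24.5 CPM in Nsd2 f/f mice and at 24.1, 10.4 and 20.8 CPM in Nsd2 Vil-KO mice. Its lowest Nsd2 f/f value lay just above its highest Nsd2 Vil-KO value, and its log2 fold change was -1.16 ± 0.39 (SE; unadjusted p = 0.022 in edgeR), or -1.13 without the libraries that stood apart, named next. Replicate 3 of Nsd2 f/f and replicate 2 of Nsd2 Vil-KO stood apart from the other 4 libraries. Their mean Spearman correlation with those 4 was 0.933, against 0.981 among the 4. They alone had more than 10 Xist counts, at 4296 and 3684, respectively, against 1 to 5 elsewhere. The epithelial markers Epcam, Cdh1, Krt8, Krt18, Krt19, Krt20 and Vil1 summed to between 11223 and 17413 CPM, against 18.8 to 132 CPM for 4 leukocyte markers. Passing the screening criterion meant a change of more than 1.2-fold with p below 0.05 before adjustment, here by the quasi-likelihood test of edgeR. Of 14650 genes tested, 241 passed it as higher and 241 as lower in Nsd2 Vil-KO mice, and 0% had an adjusted p below 0.05.

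None of the 10 NF-kB genes passed the screening criterion in either direction, where 3.29% of all genes did (1.65% higher, 1.65% lower), and 0 had an adjusted p below 0.05 by edgeR. Their unadjusted p values ran from 0.152 for Rela to 0.948 for Bcl3, so 0 were below 0.05 in this fit, and 0 were below 0.05 in any of 17 other analyses, DESeq2 and limma-voom among them. The smallest p in those was 0.0607, for Rela with Xist presence as covariate. The fitted difference was above 0 in 6 of the genes and below 0 in 4, with a median log2 fold change of 0.08 against 0.001 over all genes tested. A p above the threshold does not show that the genotypes were alike, and the 95% intervals say how large a difference remains compatible with these libraries. They were narrowest for the subunits and widest for Nfkbia and Nfkbiz.

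**Figure D1:**
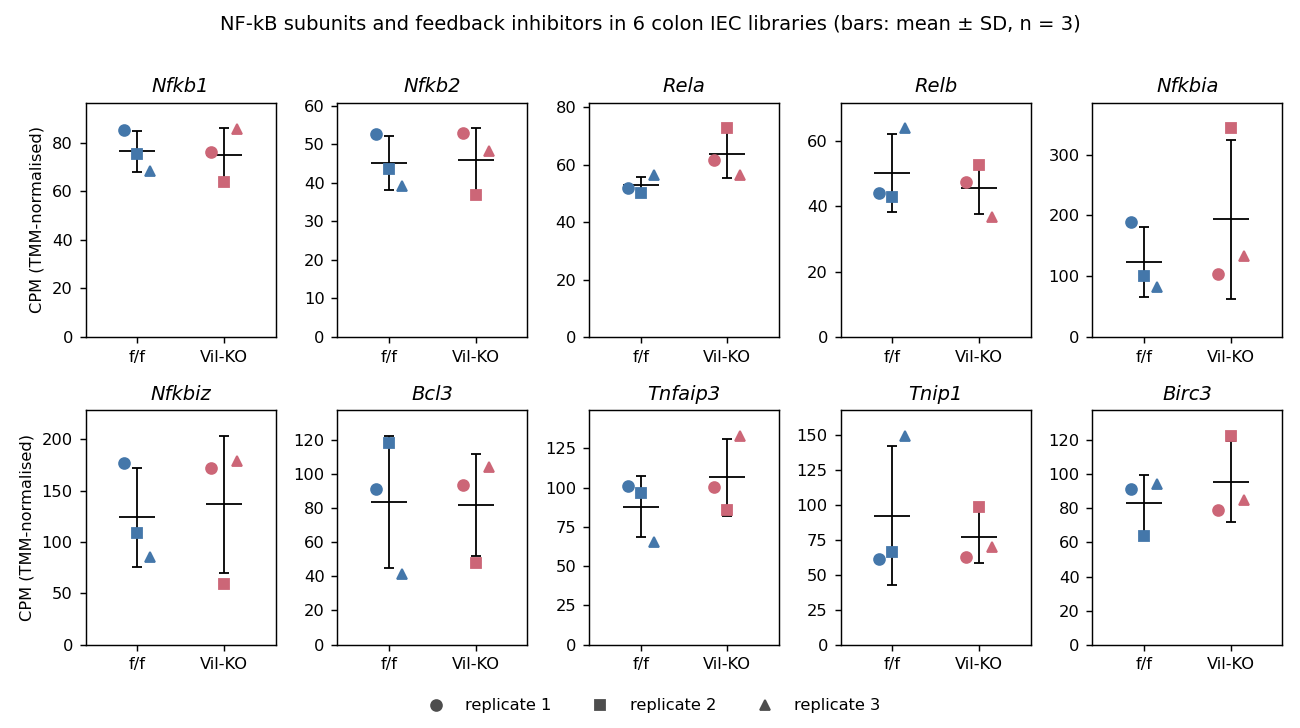
Level of each gene (y axes, TMM-normalised CPM, starting at 0) in the 3 Nsd2 f/f (blue) and 3 Nsd2 Vil-KO (red) libraries. Marker shapes give the replicate, and black bars the mean ± SD (n = 3). The genotypes overlap in each panel except Rela, where 56.6 CPM, the lowest Nsd2 Vil-KO value, lies just above 56.3 CPM, the highest Nsd2 f/f value.

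To compare the genes with each other, CPM was divided by the length of all annotated exons in kilobases. On this scale Nfkbia was the most abundant, with a mean of 76.8 ± 35.5 CPM per kilobase in Nsd2 f/f and of 120.3 ± 81.3 CPM per kilobase in Nsd2 Vil-KO mice (SD, n = 3 each). Nfkb1 was the least abundant, at 6.33 ± 0.71 and 6.22 ± 0.91 CPM per kilobase (SD, n = 3). From the highest mean over the 6 libraries to the lowest, the order was Nfkbia, Bcl3, Nfkbiz, Tnip1, Rela, Birc3, Tnfaip3, Relb, Nfkb2 and Nfkb1. By these means the IkB genes stood at the head of the order, and 3 of the 4 subunits at its foot. The step from Nfkbia to Bcl3 was 1.48 ± 1.09 on the log2 scale (SD over 6 libraries) and that from Nfkb2 to Nfkb1 was 0.66 ± 0.11, and both had the same direction in 6 of 6 libraries. The other 7 steps were smaller than their own SD, so those neighbours did not differ beyond their spread. Nfkb1 has 12061 bases of annotated exon and Nfkbia 1610, and a length that counts exons the IECs do not use lowers the value of a gene.

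Over the 6 libraries the subunits had the smallest spread of the group. Nfkb1 (ENSMUSG00000028163, chr3:135584655-135691547, GRCm38) encodes a precursor whose processed form is one of the common DNA-binding partners. It stood at 85.3, 75.5 and 68.2 CPM in Nsd2 f/f mice and at 75.9, 63.7 and 85.5 CPM in Nsd2 Vil-KO mice. Both genotypes covered nearly the same range. The log2 fold change was -0.02 ± 0.18 (SE), with a 95% interval from 0.728-fold to 1.33-fold.

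Nfkb2 (ENSMUSG00000025225, chr19:46304320-46312385) encodes the precursor that is processed in the non-canonical pathway, where it partners Relb. It stood at 52.7, 43.7 and 39.1 CPM in Nsd2 f/f mice and at 52.9, 36.8 and 48.4 CPM in Nsd2 Vil-KO mice. Replicate 1 was the highest in both genotypes, at almost the same level. The genotype difference on the log2 scale was 0.03 ± 0.21 (SE), with a 95% interval from 0.724-fold to 1.43-fold. Exons of Psd and of AC114539.1 lie opposite 299 and 531 bases of its exons, so the count can hold their reads if strand was not used.

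Rela (ENSMUSG00000024927, chr19:5637483-5648130) encodes the main transactivating subunit of the canonical pathway. It stood at 51.7, 50.3 and 56.3 CPM in Nsd2 f/f mice and at 61.6, 72.8 and 56.6 CPM in Nsd2 Vil-KO mice. It was the only one of the 10 genes in which every Nsd2 Vil-KO library lay above every Nsd2 f/f library, by a margin of under 1 CPM, and 5.21% of all genes tested showed that arrangement. The opposite one, found in 4.71% of genes, occurred in 0 of the 10. On the log2 scale Nsd2 Vil-KO minus Nsd2 f/f came to 0.27 ± 0.17 (SE; unadjusted p = 0.152 in edgeR), with a 95% interval from 0.916-fold to 1.59-fold. The exact permutation test (two-sided) gave p = 0.1, the smallest that 3 libraries against 3 can give. The fitted value stayed between 0.16 and 0.35 over the 17 other analyses.

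Relb (ENSMUSG00000002983, chr7:19606217-19629438), the non-canonical transactivator, stood at 44.0, 42.7 and 63.9 CPM in Nsd2 f/f mice and at 47.4, 52.5 and 36.7 CPM in Nsd2 Vil-KO mice. Its highest and lowest values were both in replicate 3, one of each genotype. The log2 fold change was -0.14 ± 0.23 (SE), with a 95% interval from 0.621-fold to 1.33-fold.

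Over the 6 libraries the IkB family members varied most, though Bcl3 did so only through the 2 libraries that stood apart. Nfkbia (ENSMUSG00000021025, chr12:55489410-55492647) encodes the classical inhibitor IkB alpha, which NF-kB itself induces and which carries the dimers back out of the nucleus. Its promoter is shown because it is a textbook case of such feedback. The 250 bases before the start of transcription in RefSeq (GRCm38.p6, minus strand, chr12:55492648-55492897) are printed 5′ to 3′, with matches to the NF-kB consensus site or to GGANTTNCC on either strand in capitals. The matches begin 178 and 29 bases before the start.
Nfkbia: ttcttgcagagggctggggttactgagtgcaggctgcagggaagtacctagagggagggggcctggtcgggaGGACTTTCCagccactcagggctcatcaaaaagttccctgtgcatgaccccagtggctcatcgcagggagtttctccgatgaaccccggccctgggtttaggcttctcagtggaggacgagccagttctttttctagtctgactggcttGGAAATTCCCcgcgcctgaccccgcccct
Nfkbia stood at 189, 99.7 and 82.4 CPM in Nsd2 f/f mice and at 104, 344 and 134 CPM in Nsd2 Vil-KO mice. The single value of 344 CPM set the genotype mean, while the other 5 libraries of both genotypes were mixed. The genotype difference on the log2 scale was 0.65 ± 0.51 (SE; unadjusted p = 0.248 in edgeR), and its 95% interval ran from 0.675-fold to 3.63-fold. It was -0.058 without Nsd2 Vil-KO replicate 2 and -0.27 in the 4 libraries without that library and Nsd2 f/f replicate 3. It was 1.09 without Nsd2 f/f replicate 1. The summed level of 5 neutrophil markers (S100a8, S100a9, Csf3r, Cxcr2 and Retnlg) was also highest in Nsd2 Vil-KO replicate 2, at 996 CPM, and next in Nsd2 f/f replicate 1, at 646 CPM, the library with the second highest Nfkbia. The sum was between 9.44 and 99.8 CPM in the other 4 libraries. In Nsd2 Vil-KO replicate 2 it consisted almost wholly of S100a8, at 573 CPM, and S100a9, at 404 CPM. Csf3r, the receptor for granulocyte colony-stimulating factor, went the other way, with its lowest value of all, 0.665 CPM, in Nsd2 Vil-KO replicate 2 and its highest, 30.9 CPM, in Nsd2 f/f replicate 1. Cxcr2 and Retnlg were also lower in the former library, at 5.10 and 13.0 CPM, than in the latter, at 12.5 and 48.6 CPM. The 4 leukocyte markers did not follow the order of Nfkbia either, at 21.8 CPM in Nsd2 Vil-KO replicate 2 and 132 CPM in Nsd2 f/f replicate 1. The part of other cells in the Nfkbia values was not tested, and in bulk libraries more cells of a type and more RNA per cell cannot be told apart.

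Nfkbiz (ENSMUSG00000035356, chr16:55811375-55838899) encodes the nuclear protein IkB zeta, which helps NF-kB switch on a subset of its targets. It stood at 177, 109 and 85.2 CPM in Nsd2 f/f mice and at 172, 59.0 and 179 CPM in Nsd2 Vil-KO mice. Replicate 1 of both genotypes and Nsd2 Vil-KO replicate 3 were nearly level, and Nsd2 Vil-KO replicate 2 was the lowest of all. On the log2 scale Nsd2 Vil-KO minus Nsd2 f/f came to 0.14 ± 0.46 (SE), with a 95% interval from 0.522-fold to 2.32-fold. It was 0.50 without Nsd2 Vil-KO replicate 2, -0.067 without Nsd2 f/f replicate 3 and 0.30 without both.

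Bcl3 (ENSMUSG00000053175, chr7:19808462-19822770) encodes another nuclear IkB protein, which binds dimers of the processed Nfkb1 or Nfkb2 products. It stood at 91.1, 118 and 41.5 CPM in Nsd2 f/f mice and at 93.8, 47.9 and 104 CPM in Nsd2 Vil-KO mice. Each genotype had 2 libraries near 100 CPM and 1 below 50 CPM, and the means, 83.6 ± 39.0 and 82.0 ± 29.95 CPM (SD, n = 3), were close. The log2 fold change was -0.03 ± 0.43 (SE), with a 95% interval from 0.484-fold to 1.98-fold. Exons of the antisense gene Gm16175 lie opposite 161 bases of Bcl3.

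The remaining 3 genes act on ubiquitin chains in the receptor complexes. Tnfaip3 (ENSMUSG00000019850, chr10:19000910-19015657) encodes a ubiquitin-editing enzyme that shuts off signalling from tumour necrosis factor and Toll-like receptors, and Tnip1 (ENSMUSG00000020400, chr11:54910785-54962917) encodes a ubiquitin-binding partner of it. Their promoters are shown beside that of Nfkbia because a promoter of Tnfaip3 holds 3 separate matches and that of Tnip1 a palindrome matched on both strands. The stretches printed are the bases just before a RefSeq start (GRCm38.p6, both on the minus strand, chr10:19015411-19015547 and chr11:54962941-54963190), with matches in capitals.
Tnfaip3: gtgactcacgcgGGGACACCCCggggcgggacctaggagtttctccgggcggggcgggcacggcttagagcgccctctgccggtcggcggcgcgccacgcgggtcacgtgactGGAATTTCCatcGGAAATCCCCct
Tnip1: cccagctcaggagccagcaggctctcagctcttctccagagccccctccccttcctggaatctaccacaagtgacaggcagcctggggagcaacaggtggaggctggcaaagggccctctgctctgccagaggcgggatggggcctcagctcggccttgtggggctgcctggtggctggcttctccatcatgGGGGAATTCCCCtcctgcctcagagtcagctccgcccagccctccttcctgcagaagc
Tnfaip3 stood at 101, 96.3 and 65.4 CPM in Nsd2 f/f mice and at 100.4, 85.8 and 133 CPM in Nsd2 Vil-KO mice. The genotypes overlapped, with Nsd2 Vil-KO replicate 2 below 2 of the 3 Nsd2 f/f values. The genotype difference on the log2 scale was 0.28 ± 0.25 (SE), with a 95% interval from 0.809-fold to 1.82-fold, and it stayed between 0.09 and 0.41 over the 17 other analyses.

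Tnip1 stood at 61.0, 66.6 and 150 CPM in Nsd2 f/f mice and at 62.7, 98.2 and 70.2 CPM in Nsd2 Vil-KO mice. The highest values were in Nsd2 f/f replicate 3 and Nsd2 Vil-KO replicate 2, and the other 4 libraries lay within 1.15-fold of each other. The log2 fold change of -0.26 ± 0.38 (SE) became 0.28 when Nsd2 f/f replicate 3 was left out and 0.070 without both of these libraries. Its 95% interval ran from 0.449-fold to 1.55-fold.

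Birc3 (ENSMUSG00000032000, chr9:7848699-7873186) encodes an inhibitor of apoptosis protein with ubiquitin ligase activity, which is induced by NF-kB, promotes survival signalling in the receptor complex and limits the non-canonical pathway. It stood at 91.3, 64.0 and 94.1 CPM in Nsd2 f/f mice and at 79.1, 122.9 and 85.0 CPM in Nsd2 Vil-KO mice. Only the value of 122.9 CPM lay outside the Nsd2 f/f range. On the log2 scale Nsd2 Vil-KO minus Nsd2 f/f came to 0.20 ± 0.24 (SE), with a 95% interval from 0.771-fold to 1.72-fold, and was -0.018 without Nsd2 Vil-KO replicate 2.

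**Figure D2:**
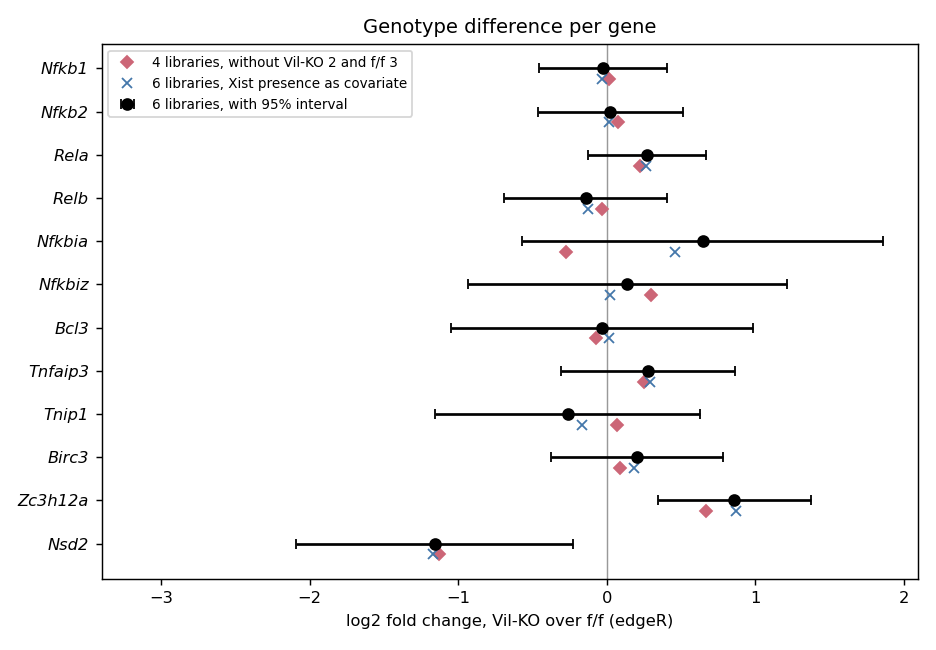
Log2 fold change of Nsd2 Vil-KO over Nsd2 f/f (x axis) for the 10 genes, for the pathway gene Zc3h12a and for the targeted gene Nsd2. Black points and bars are the fit over 6 libraries with its 95% interval, red diamonds the 4 libraries without replicate 2 of Nsd2 Vil-KO and replicate 3 of Nsd2 f/f, and blue crosses the fit with Xist presence as covariate. The interval contains 0 for each of the 10 genes, and Nfkbia moves from 0.65 to -0.27 in the 4 libraries.

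RefSeq promoter windows, 250 bases before to 50 bases after a start, were matched by symbol for 7 of the 10 genes, with 10 windows in all. The NF-kB consensus site was found in windows of 5 of these genes (Nfkb2, Nfkbia, Bcl3, Tnfaip3 and Tnip1), against 5.14% of 27025 genes with a window, and the overlapping motif GGANTTNCC in the same 5 genes, against 4.54%. By window, each motif was found in 7 of the 10, against 4.51% of 32851 windows for the consensus and 3.95% for GGANTTNCC. Overlapping windows of Nfkb2 share a site, so the windows are not separate. The list was chosen to hold feedback genes of NF-kB, so a share above that of all genes is no test of it. No match lay in the windows of Rela and Birc3 or in a second window of Tnfaip3 (upstream bases chr10:19011964-19012213). This says only that these letters are absent there. The matches of Nfkb2 and Bcl3 fall in annotated exons, so only 30 bases around 1 site of each are printed (chr19:46304687-46304716, plus strand, and chr7:19822735-19822764, minus strand).
Nfkb2: gggatcgtcacGGGAATTCCCCccctcggg
Bcl3: gtcggcggcagGGGAAGTCCCgctgcccgg
Of the genes with matches, none of the 5 passed the screening criterion. A match is a description of the sequence, and binding was not measured here.

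With all 6 libraries kept, the spread between libraries of a genotype was sorted by role. The SD of log2 CPM within a genotype was 0.14 for Rela, 0.19 for Nfkb1, 0.24 for Nfkb2 and 0.29 for Relb, each below the median of 0.38 over all genes tested, as were those of Birc3 (0.32) and Tnfaip3 (0.33). It was 0.56 for Tnip1, 0.70 for Bcl3, 0.74 for Nfkbiz and 0.78 for Nfkbia, and only 13.3% of the genes tested had a larger spread than Nfkbia. For the 4 libraries without replicate 2 of Nsd2 Vil-KO and replicate 3 of Nsd2 f/f, the fold range over both genotypes was used. This is another measure than the SD, and by it the roles were only partly sorted. The 4 subunits still lay below the 3 IkB genes, with Relb and Bcl3 nearly level. The ubiquitin-related genes were mixed among them. The range there was 1.13-fold for Nfkb1, 1.15-fold for Tnip1, 1.21-fold for Nfkb2, 1.22-fold for Rela, 1.29-fold for Relb and 1.30-fold for Bcl3. Tnfaip3 (1.38-fold), Birc3 (1.43-fold), Nfkbiz (1.64-fold) and Nfkbia (1.89-fold) covered more. Over all 6 libraries Nfkb1 covered 1.34-fold and Nfkbia 4.18-fold. In summed levels, the 4 subunits had between 43.2 and 50.5 CPM per kilobase in the 6 libraries, whereas the 3 IkB genes had between 84.9 and 245 CPM per kilobase. The 3 ubiquitin-related genes had between 44.9 and 70.2 CPM per kilobase. The ratio of Nfkbia to Rela, per kilobase, was 6.96, 3.78 and 2.79 in Nsd2 f/f mice and 3.21, 9.01 and 4.50 in Nsd2 Vil-KO mice, and the genotypes overlapped.

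Replicate 2 of Nsd2 Vil-KO and replicate 3 of Nsd2 f/f were at the ends of the range for most of the genes. In both, Nfkb1, Nfkb2, Nfkbiz, Tnfaip3 and Bcl3 were below each of the other 4 libraries, and Relb, Tnip1 and Birc3 were above each of them. Of all genes tested, 20.9% were below and 20.2% above in both libraries, so such placement was common across the transcriptome. Relative to the median of the other 4 on the log2 scale, Bcl3 lay at -1.04 and -1.24 in these libraries and Tnip1 at 0.60 and 1.21. Nfkbia went opposite ways, at 1.54 in Nsd2 Vil-KO replicate 2 and -0.51 in Nsd2 f/f replicate 3. Among the other 4 libraries the median range over all genes tested was 1.37-fold. Mitochondrial genes took 19.6% of the counts in Nsd2 f/f replicate 3, against 5.51% to 9.13% elsewhere. Fibroblast markers (Col1a1, Col1a2, Col3a1, Dcn and Pdgfra) summed to 4.93 and 5.57 CPM in the libraries that stood apart and to between 15.1 and 259 CPM in the other 4. The sums of leukocyte, macrophage, B and plasma cell and smooth muscle markers were also lowest in the libraries that stood apart. Those of neutrophil, T cell and endothelial markers were not lowest in both. The part of these differences in the NF-kB values was not tested.

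**Figure D3:**
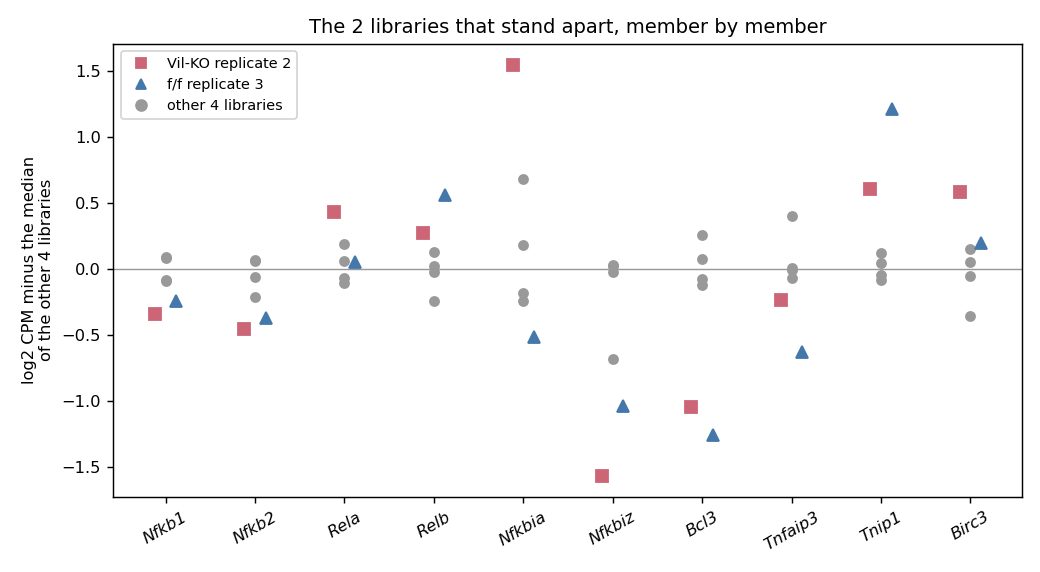
Log2 CPM of each gene minus the median of the 4 libraries that resembled each other (y axis), for Nsd2 Vil-KO replicate 2 (red squares), Nsd2 f/f replicate 3 (blue triangles) and those 4 (grey). Both libraries lie below the grey points in 5 genes and above them in 3, while Nfkbia is high in one and low in the other.

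A further 86 genes of the pathway were listed by role, and 81 had enough counts to be tested. Of these, 1 passed the screening criterion as higher in Nsd2 Vil-KO mice and 0 as lower, which is no more than the 1.65% of all genes in each direction. The median log2 fold change was 0.07. That gene was Zc3h12a (Regnase), an endoribonuclease that degrades inflammatory transcripts. It stood at 92.1, 79.5 and 61.6 CPM in Nsd2 f/f mice and at 116, 152 and 155 CPM in Nsd2 Vil-KO mice. Every Nsd2 Vil-KO library was above every Nsd2 f/f library. The log2 fold change was 0.86 ± 0.22 (SE; unadjusted p = 0.00554 and adjusted p = 0.992 in edgeR), and its 95% interval ran from 1.27-fold to 2.59-fold. It passed the criterion in each of the 17 other analyses, with values between 0.67 and 1.00 and unadjusted p between 0.00101 and 0.0228. Every Nsd2 Vil-KO library was above every Nsd2 f/f library in 6 of the 81 genes (Rel, Tnip2, Tnfrsf1b, Tlr5, Traf3 and Zc3h12a), against 5.21% of all genes tested, and below in 1 (Ripk1), against 4.71%.

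Of the 11 other negative regulators Zc3h12a was the 1 that passed. Among 6 further Rel, IkB and Tnip family genes 0 passed the criterion, and their median was 0.14, or 0.037 without the 2 libraries that stood apart. Tnip3, a relative of Tnip1, had 67.5 ± 10.3 CPM in Nsd2 f/f and 95.04 ± 21.4 CPM in Nsd2 Vil-KO (SD, n = 3), and its log2 fold change was 0.49 ± 0.23 (SE). Nfkbib, which encodes a further cytoplasmic inhibitor, had a value of -0.21 ± 0.17 (SE). Rel, the remaining subunit gene of the family and named here after its values were seen, stood at 22.1, 13.3 and 9.68 CPM in Nsd2 f/f mice and at 24.2, 23.5 and 27.9 CPM in Nsd2 Vil-KO mice. Its groups did not overlap, but at a log2 fold change of 0.74 ± 0.32 (SE; unadjusted p = 0.0525 in edgeR) it did not pass. It was 0.56 without the 2 libraries that stood apart and 1.13 without Nsd2 f/f replicate 1.

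None of the 11 receptor genes passed, with 9 fitted differences above 0 and 2 below and a median of 0.21, which was 0.053 without the 2 libraries that stood apart. The 2 most abundant were Ltbr, the lymphotoxin beta receptor of the non-canonical pathway, with a log2 fold change of 0.24 ± 0.23 (SE), and Tnfrsf1b, a receptor for tumour necrosis factor, with 0.77 ± 0.49 (SE). Tnfrsf1b stood at 150, 108 and 32.1 CPM in Nsd2 f/f mice and at 158, 155 and 184 CPM in Nsd2 Vil-KO mice, with the lowest value in Nsd2 f/f replicate 3. Its difference was 0.36 without that library and 0.41 without both of those that stood apart, while Ltbr was then at 0.053. None of the 23 kinases and adaptors passed, and their median was 0.09, or 0.044 without those 2 libraries. Rbck1 and Tradd, the most abundant of these, encode a subunit of the linear ubiquitin ligase and an adaptor of the tumour necrosis factor receptor, and had log2 fold changes of -0.12 ± 0.18 (SE) and -0.24 ± 0.23 (SE), against 0.038 and 0.092 without them.

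Of 10 ligand genes 7 were tested and none passed, with a median of -0.81 that was 0.23 without Nsd2 f/f replicate 1 and 0.089 when a gene needed 10 counts in each library, and -1.21 without the 2 libraries that stood apart. Il1b, which encodes interleukin-1 beta, stood at 424, 66.0 and 2.34 CPM in Nsd2 f/f mice and at 107, 5.87 and 7.75 CPM in Nsd2 Vil-KO mice, with its highest value of each genotype in replicate 1 and a log2 fold change of -2.03 ± 1.66 (SE), or 0.23 without Nsd2 f/f replicate 1. Markers of leukocytes, macrophages and fibroblasts were also highest in Nsd2 f/f replicate 1 and low in Nsd2 f/f replicate 3. In these libraries the 4 leukocyte markers summed to 132 and 18.8 CPM, respectively, 7 macrophage markers to 105 and 8.95 CPM and 5 fibroblast markers to 259 and 5.57 CPM. Other lists did not follow this order. Neutrophil markers were highest in Nsd2 Vil-KO replicate 2, and T cell and B and plasma cell markers in Nsd2 Vil-KO replicate 1. Smooth muscle markers were highest in Nsd2 f/f replicate 2, and endothelial markers were not low in Nsd2 f/f replicate 3, at 3.07 CPM. The part of other cells in the ligand values was not tested. Il18, an epithelial cytokine, had a log2 fold change of 0.09 ± 0.40 (SE), and of 0.24 without the 2 libraries that stood apart. Of 25 effector targets 23 were tested and none passed, and their median of -0.35 became 0.35 when Nsd2 f/f replicate 1 was left out, and -0.42 without the 2 libraries that stood apart. Lcn2, an antimicrobial siderophore-binding protein, stood at 74.9, 8.50 and 1.77 CPM in Nsd2 f/f mice and at 12.5, 1806 and 9.08 CPM in Nsd2 Vil-KO mice, with the single high value in the library that also had the most Nfkbia. Its fitted difference of 4.41 ± 2.24 (SE) was -1.40 without that library. Nos2, the inducible nitric oxide synthase, stood at 501, 225 and 13.3 CPM in Nsd2 f/f mice and at 413, 84.1 and 370 CPM in Nsd2 Vil-KO mice, lowest in the same libraries as Bcl3 and Nfkbiz.

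**Figure D4:**
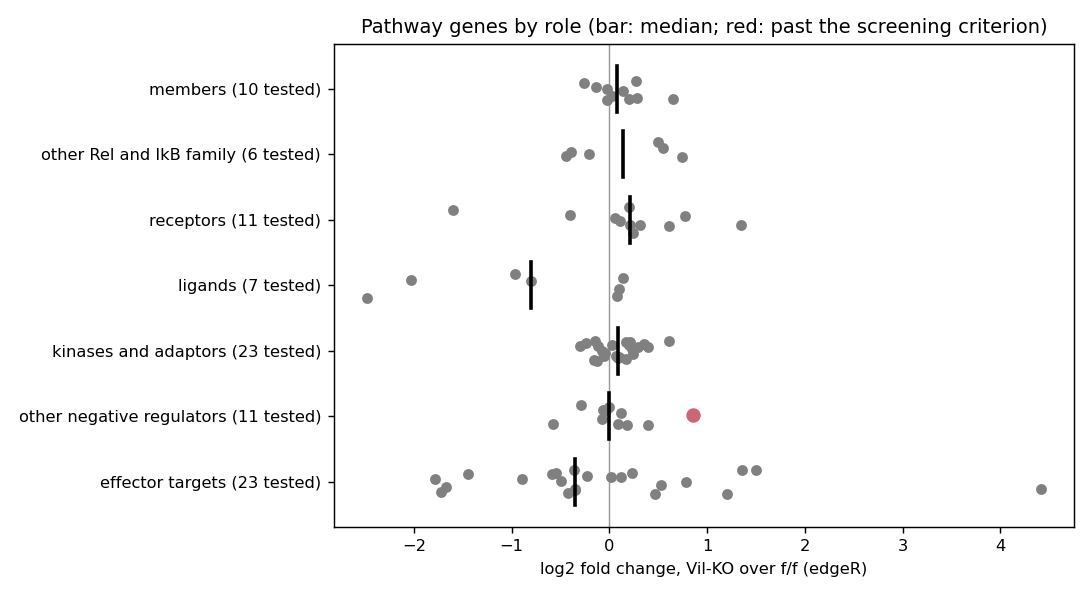
Log2 fold change of Nsd2 Vil-KO over Nsd2 f/f (x axis) for each tested pathway gene by role (y axis, with the number tested). Grey points did not pass the screening criterion, the red point, Zc3h12a at 0.86, did, and black bars are medians, which lie between -0.81 (ligands) and 0.21 (receptors).

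The 10 genes did not rise and fall together over the libraries. In the libraries that stood apart, most lay outside the range of the others, some below and some above, as described earlier. Standardised to mean 0 and SD 1, their mean stayed between -0.35 and 0.25 in each library, since genes that were high in a library were balanced by others that were low. Of 9225 other genes with at least 10 CPM, the 5 nearest to that mean were CAAA01118383.1, Wdr59, Fam91a1, Cenpv and Sh3bgrl2, at root mean square distances of 0.68 over 6 libraries against a median of 0.95. The members themselves lay between 0.77 (Tnfaip3) and 1.06 (Tnip1) from it. With every gene at SD 1 and this mean nearly flat, distances could only take a narrow range. The 5 nearest genes therefore describe an average that no member followed closely.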

How the data were processed

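Total RNA of colon IECs was extracted for 6 libraries, 3 per genotype, and per the study's methods polyadenylated mRNA was selected from it for sequencing. Reads were trimmed with Cutadapt and Trimmomatic and aligned to GRCm38 (mm10) with HISAT2. The authors deposited raw counts for every Ensembl gene, neither normalised nor filtered. The software behind the counts, and its handling of strand, are not given in the sources used here. The labels name a TruSeq kit and the methods a directional NEBNext kit. Labels do not say whether libraries of a genotype came from separate mice on separate days. The p-values of the fits set a genotype difference against the spread between these libraries, and may not carry over to other mice.

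Counts were analysed with edgeR 4.0.16 in R 4.3.3. TMM factors, filterByExpr (14650 genes kept, all 10 members among them) and the robust quasi-likelihood test on genotype were used, with Benjamini-Hochberg adjustment over all tested genes. The 95% intervals are the log2 fold change ± its standard error times the t quantile of the fit. Log2 CPM used a pseudocount of 0.5. Exon lengths and positions came from GENCODE vM21 (GRCm38) and promoters from RefSeq (GRCm38.p6). The test was tried on simulated data, where recovery of changed genes was required only with the spread reduced below that of these data. The members and the lists were chosen with earlier results of these data known. Named pathway genes were those past the criterion or, in lists with none, the 2 with the highest mean CPM, besides the 5 genes nearest to the mean profile, and any other was picked after its values were seen. Alternatives were other normalisations and filters, DESeq2 1.42.0, limma-voom (limma 3.58.1), a replicate block, Xist as a covariate, and libraries left out. Of 17, 1 was unplanned and chosen after seeing the data. The planned ones were not all blind to the data either, because the 2 libraries that stand apart and the split by Xist were taken from these counts.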

Additional observations from a re-analysis of the deposited data

How the results depend on the processing

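The counts of NF-kB genes past the screening criterion or with an adjusted p below 0.05 were 0 in each of 17 alternatives, and Rela, Tnfaip3 and Zc3h12a kept their direction in each. The median log2 fold change of the 10 NF-kB genes ran from -0.045 to 0.20 when single libraries were dropped. Signs changed for small differences and also for the largest, that of Nfkbia. Nfkb1 was at 0.026 with library size only, 0.028 with limma-voom and 0.016 without the 2 libraries that stand apart. Nfkbia was at -0.030 with limma-voom and -0.27 without those 2, and Tnip1 at 0.012 and 0.070. Bcl3 was at 0.023 with the replicate block and 0.015 with Xist as a covariate. With each library left out, the ranges were -0.13 to 0.082 (Nfkb1), -0.084 to 0.16 (Nfkb2), -0.25 to 0.073 (Relb), -0.058 to 1.09 (Nfkbia), -0.10 to 0.50 (Nfkbiz), -0.35 to 0.31 (Bcl3), -0.49 to 0.28 (Tnip1) and -0.018 to 0.32 (Birc3). Nsd2 no longer passed at -1.12 with library size only, nor without Nsd2 f/f replicate 1 or 2, in a leave-one-out range of -1.42 to -0.87.

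Of the other pathway genes, 1 was higher and 0 lower. The higher count was 2 with library size only, 4 with no filter, 3 with DESeq2, 3 with limma-voom, 5 with Xist as a covariate and 3 without the 2 libraries. The lower count was 2 with limma-voom, 1 with the replicate block, 1 with Xist as a covariate and 2 without the 2 libraries. With single libraries left out these counts were 1 to 6, highest without Nsd2 f/f replicate 1, and 0 to 3, highest without Nsd2 f/f replicate 3. Over all genes, 241 higher and 241 lower became 377 and 484 with no filter, 691 and 730 with limma-voom, 547 and 598 with Xist as a covariate, 841 and 805 without the 2 libraries, and 117 to 364 and 171 to 405 with 1 library left out (fewest higher without Nsd2 f/f replicate 2, most without Nsd2 Vil-KO replicate 2); the higher count was 133 with the replicate block. Adjusted p values below 0.05 were reached by 4 genes with DESeq2, 0 of them members. Deviations of same-numbered libraries correlated at 0.30, -0.37 and -0.15 for replicates 1, 2 and 3, and 1 of 3 Nsd2 Vil-KO libraries correlated best with its own number. The 2 libraries that stand apart carry different numbers, so this check cannot tell whether the numbers pair the libraries. The cause of these changes was not tested.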
